A study of Drosophila melanogaster with 14 samples.

Results

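The Transib and hopper families are DNA transposons, and their insertions absent from the dm6 reference genome were followed here in every list of the series. Members were all records whose family name begins with transib or hopper, whatever its case. There were 633 of them among 20426 listed insertions, in 6 of the 123 families: hopper with 423, hopper2 with 12, transib1 with 28, transib2 with 74, transib3 with 50 and transib4 with 46. Of the hopper records, 26 lay on the mitochondrial genome, beside 607 nuclear records of all members. They are described apart at the end, but counts per library and the pool comparison include them unless nuclear values are named.

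DNA transposons move by a cut-and-paste reaction, in which a transposase binds the inverted repeats at the ends of the element, excises it and joins it to a new site. They need no RNA intermediate, unlike the retrotransposons, and copies whose own transposase gene is broken can be moved by the enzyme of an intact relative. The Transib transposase is related to the core of RAG1, the recombinase that assembles antigen receptor genes in jawed vertebrates.

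The study asked whether removal of Piwi from ovarian somatic cells is followed by new transposon insertions in the progeny. All 14 libraries came from 1 Drosophila melanogaster line of genotype w with tj-GAL4, tubP-GAL80[ts] and an sh-piwi transgene, so the controls carry every transgene too. The tj driver acts in the follicle cells that surround the germline, and a heat-sensitive repressor holds the short hairpin against piwi in check. Genomic DNA was sequenced from 12 single adult flies (piwi-sKD, labelled 25°C for the last 5 days, 125 nt reads), from 1 piwi-sKD pool (same label, 100 nt reads) and from 1 no-KD pool of 3 to 17 h embryos (kept at 20°C, 100 nt reads). The piwi-sKD pool is labelled adult fly, whereas the methods describe embryos of the second generation, the generation to which they assign the single flies as well, so by the methods the 25°C shift was that of an ancestor and not of the sequenced animals. Pools and flies were prepared at different sites and mapped with different BWA versions, and each pool is 1 library, so differences between pools have no replicate check.

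The lists held 5096 insertions in the piwi-sKD pool, against 4356 in the no-KD pool, supported by 47733 and 38580 reads. A fly had 537 to 1307 insertions and 1774 to 5901 reads, so its lists are shallower than those of the pools. Support is the number of reads behind an insertion, at least 2 in every list. The 12 flies of 1 line hold many of the same insertions, so a test over flies measures only how repeatable a value is from fly to fly.

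Members made up 3.65% of the insertions of the piwi-sKD pool (186 of 5096, 1038 reads) and 3.47% of those of the no-KD pool (151 of 4356, 815 reads). A fly held 24.7 ± 8.39 member insertions (SD, n = 12), from 10 in fly 12 to 40 in fly 5, which was 2.66% ± 0.479 of its list. The families differed widely in number, and all except hopper2 were present in at least 8 flies. hopper was the most numerous everywhere, with 118 records in the piwi-sKD pool, 104 in the no-KD pool and 7 to 26 in a fly (median 15). transib2 had 26 records in the piwi-sKD pool, 16 in the no-KD pool and 1 to 5 in a fly. transib3 had 13 and 12 records in the piwi-sKD and no-KD pools and was found in 11 flies, with up to 5 records. transib4 had 14 and 9 in the same pools and was in all 12 flies, with 1 to 3 records each. transib1 was the rarest Transib family, with 7 records in each pool, 8 flies with 1 to 3 records and 4 flies with none. hopper2 had 8 records in the piwi-sKD pool, 3 in the no-KD pool and 1 record in fly 7 alone.

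The number of hopper insertions in a fly went with the number of all its other insertions. The counts were 13, 15, 24, 26, 25, 22, 15, 13, 11, 12, 18 and 7 in flies 1 to 12. Flies 3, 4, 5 and 6, which had 988 to 1307 insertions in all, were the ones above 20, while fly 12, with the shortest list of 537 insertions, had the fewest. Fly 7 had 15, although its list of 1032 insertions was within the same range. Pearson's r was 0.879 (permutation p = 1.10e-04, adjusted p = 0.00114, n = 12) and Spearman's rho 0.93 (permutation p = 5.00e-05, adjusted p = 0.00173). Without flies 5 and 12, the farthest from the median total, r was 0.80. Of 104 families tested the same way, 48.1% passed, so hopper shared this with many families. transib2 was just past the threshold with r = 0.648 (permutation test, adjusted p = 0.0489, n = 12), and its r of 0.365 without the same 2 flies was not (permutation test, adjusted p = 0.453), so its relation rests on them. The other families were not called, with r = 0.614 for transib1 (permutation test, adjusted p = 0.0706, n = 12), 0.109 for transib3 (adjusted p = 0.785) and 0.311 for transib4 (adjusted p = 0.385).

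**Figure D1:**
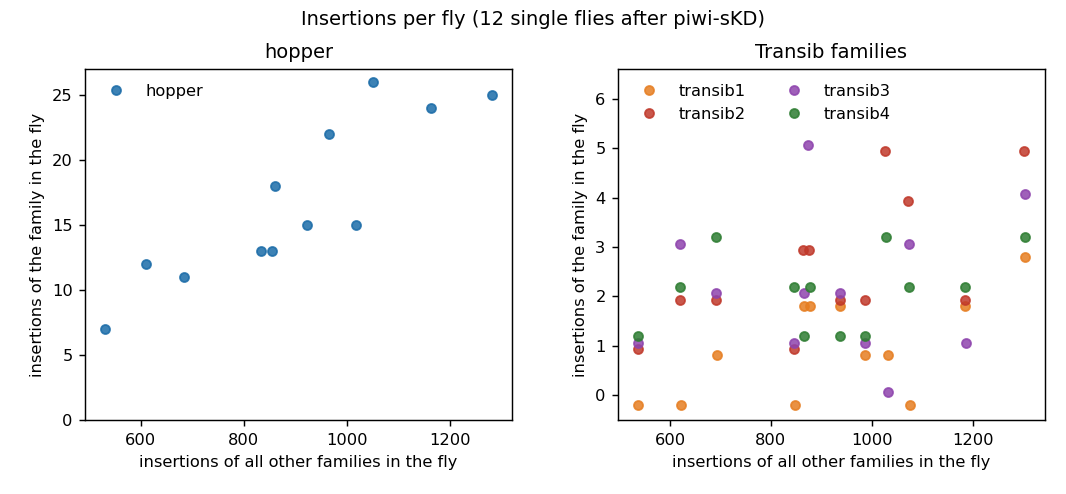
Insertions of hopper (left) and of the 4 Transib families (right) in each of the 12 single flies, against the number of insertions of all other families in the same fly. Points of the Transib families are shifted slightly up or down so that equal counts do not hide each other. hopper ranged from 7 to 26 insertions and was high where the list was long, while no Transib family exceeded 5 in a fly.

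The pools were then compared by their pool-specific insertions, those with no insertion of any family within 20 bp in the other pool. No member family stood apart between the piwi-sKD and the no-KD pool. The piwi-sKD pool had 125 specific member insertions and the no-KD pool 95, a ratio of 1.32 (exact 95% interval 1.00 to 1.74), beside 2870 and 2135 and a ratio of 1.34 over all families. The percentage of the 114 families tested that passed was 0.0 after adjustment and 1.75 at an unadjusted p under 0.05 (two-sided Fisher's exact test of each family against all others), and no member was among the 2 families behind that last figure. For hopper, 71 insertions were specific to the piwi-sKD pool and 63 to the no-KD one, a ratio of 1.13 (0.791 to 1.61, adjusted p = 1.00 by Fisher's exact test). For transib2 the counts were 20 and 10, a ratio of 2.0 whose interval of 0.894 to 4.78 includes the ratio over all families. transib4 had 9 specific insertions with piwi-sKD and 4 with no-KD, a ratio of 2.25 (0.628 to about 10). transib1 had 5 in each pool (0.230 to 4.35), and transib3 had 13 and 12 in the piwi-sKD and no-KD pools (ratio 1.08, 0.456 to 2.60). The most uneven family was hopper2, with 7 specific insertions in the piwi-sKD pool, against 1 with no-KD (ratio 7, 0.899 to 315, adjusted p = 0.945 by Fisher's exact test). These tests compare 2 libraries of different depth, and the intervals cover counting error only.

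**Figure D2:**
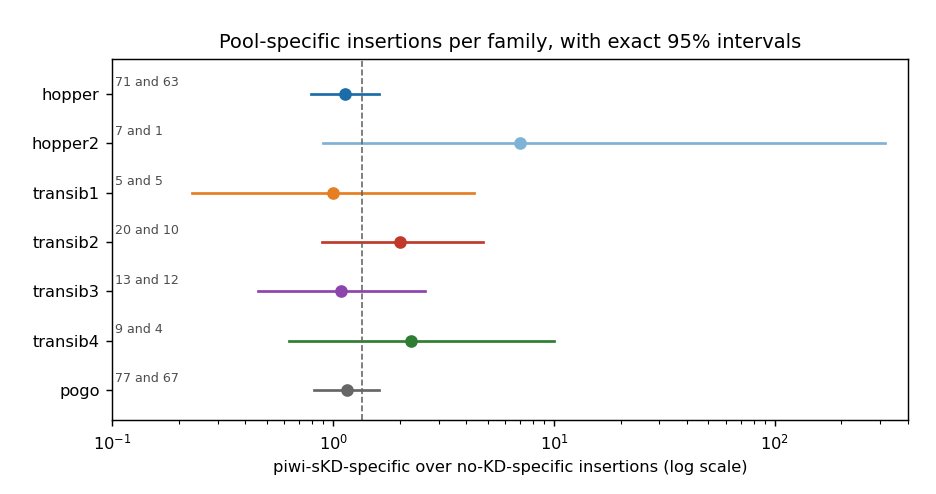
Insertions specific to the piwi-sKD pool over those specific to the no-KD pool, for the 6 member families and for pogo, another DNA transposon, on a log axis. Points are ratios, lines exact 95% intervals, the small numbers give the counts of the piwi-sKD and the no-KD pool, and the dashed line is the ratio of 1.34 over all families, which lies inside the interval of every member family.

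Some pool-specific insertions were not far from a copy of the same family in the other pool, less often than over all families. A neighbour of the same family lay within 500 bp for 47 of the 125 insertions specific to the piwi-sKD pool (37.6%) and for 53 of the 95 specific to the no-KD one (55.8%), beside 50.2% and 63.3% over all families in the same pools. Of those with none that near, 61 of 78 in the piwi-sKD pool and 35 of 42 in the no-KD pool had the minimum of 2 reads, which is 78.2% and 83.3% beside 75.2% and 82.0% over all families. transib3 shows how far the window matters. All of its 13 piwi-sKD and 12 no-KD records were pool-specific at 20 bp, yet 6 in each pool had a transib3 neighbour within 500 bp. hopper insertions that both pools shared were better supported than the specific ones, whose median was 2 reads in either pool. The shared hopper records had a median of 5 reads with piwi-sKD (47 records) and 4 with no-KD (41 records). This was not particular to hopper. Over all families the shared medians were 8 with piwi-sKD and 7 with no-KD, beside 2 for specific insertions of either pool. On nuclear chromosomes alone, the shared hopper medians were 5 for 43 records with piwi-sKD and 5.5 for 38 with no-KD. Nuclear specific insertions of members with a near neighbour were 36 of 114 and 46 of 87 in these pools. Over all families they were 1408 of 2832 and 1316 of 2090.

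Joined within 20 bp over all libraries, the nuclear members formed 364 loci, of which 288 (79.1%) were seen in 1 library, beside 67.3% of the loci of all other families. Since one insertion could be listed at positions well over 20 bp apart, records of a family were also joined within 500 bp, which gave 233 loci: 152 of hopper, 7 of hopper2, 11 of transib1, 34 of transib2, 17 of transib3 and 12 of transib4. Of these 233, 147 (63.1%) were in 1 library, beside 46.3% for all other families, and 62 (26.6%) were in both pools, beside 43.6%. In 1 fly and nowhere else were 47 loci (20.2%), beside 11.3% for all other families, and 42 of these (89.4%) had only 2 reads, beside 89.7%. Of the 99 loci found in flies, 61 (61.6%) were in 1 fly and 19 (19.2%) in at least 6, beside 38.6% and 29.9% of the 2342 loci of all other families. A larger share of the member loci was thus of 1 fly, and a smaller share widespread, than over the other families. Both other DNA transposons compared had a smaller share of loci in 1 fly than the members. For the share in at least 6 flies they lay on either side of the members. The family hoppel, which the lists name by a number, had 54.6% of its fly loci in 1 fly and 17.8% in at least 6, near the members, while pogo had 21.1% and 47.4%. The sites named below are joined within 500 bp unless stated, reads are summed over the records at a site, and start and end are as deposited on dm6, where they may be off by 1 base.

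**Figure D3:**
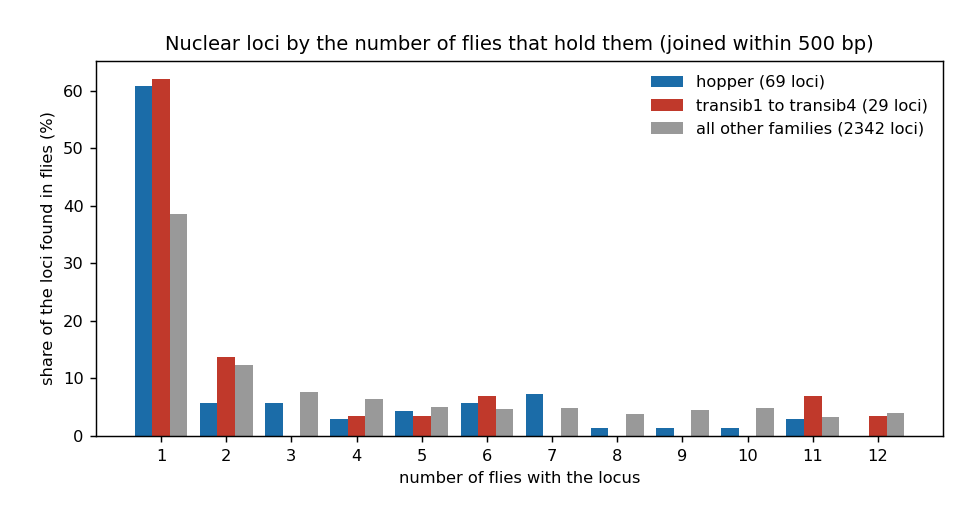
Share of the loci found in flies (vertical axis, %) by the number of flies that hold them (horizontal axis), for hopper (69 loci), the 4 Transib families (29 loci) and all other families (2342 loci). For hopper and Transib the bar at 1 fly is near 60%, against 38.6% for all other families.

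transib2 held the single member site found in all 14 libraries, at 2L 20171675 to 20171708, outside annotated gene spans. It had 2, 6, 6, 3, 5, 8, 3, 3, 6, 2, 3 and 2 reads in flies 1 to 12, 2 reads in the piwi-sKD pool, against 3 in the no-KD pool. The pools, with several times the reads of a fly over all insertions, supported this site no better than most flies did. A second transib2 site, at 2R 2782201 to 2782626 inside the span of CG41378, was in 6 flies with 2 to 6 reads (median 2.50), had 3 reads in the piwi-sKD pool and was not listed in the no-KD pool. On the Y, at 739467 to 739480, transib2 had 12 reads in the piwi-sKD pool, against 11 in the no-KD pool and was in no fly. The best supported transib2 record of the piwi-sKD pool with no partner in the no-KD pool had 6 reads, at 2R 2120989 within CG17684, and its site held 11 reads in that pool over 3 records. Elsewhere transib2 was scattered, with 12 of its 15 fly loci in a single fly.

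transib3 was concentrated at 1 site on chromosome 4, at 906728 to 907124, within the span of unc-13, which encodes a protein that primes synaptic vesicles for release, and of the overlapping pseudogene CR43361. Its reads were 3, 6, 2, 4, 18 and 15 in flies 1 to 6, then 0, 3, 4, 7, 6 and 4 in flies 7 to 12, with 15 in the piwi-sKD pool, against 9 in the no-KD pool. Fly 7 was the one library with none, and flies 5 and 6 reached the level of the pools. The 22 records spanned 396 bp, and at 20 bp they were split into several loci, the most frequent of which was in 8 libraries. This site made up 19 of the 25 transib3 records in flies.

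transib4 likewise had most of its fly records at 1 site, X 6755781 to 6756093, outside annotated genes. It had 2, 4, 7, 6, 8, 4, 9, 0, 7, 2, 2 and 3 reads in flies 1 to 12, 35 in the piwi-sKD pool, against 21 in the no-KD pool. Only fly 8 lacked it, and both pools were above every fly. A second site lay at 3R 2879075 to 2879284 within Pzl, a gene of the Piezo family of mechanically gated channels. It had 2 to 4 reads in 6 flies, 20 in the piwi-sKD pool, against 9 in the no-KD pool. The site at 3R 1271608 to 1271613, within the myosin gene Myo81F, was seen in the pools alone, with 12 reads in the piwi-sKD pool, against 7 in the no-KD pool.

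transib1 had no site in 6 flies or more. Its commonest, at 3L 24281714 to 24281872 within Snap25, which encodes a SNARE protein of synaptic vesicle fusion, had 2 reads in each of 5 flies, 11 in the piwi-sKD pool, against 9 in the no-KD pool. Another, at 3L 24737554 to 24738215 within the homeobox gene scro, had 2 to 4 reads in 4 flies, none in the piwi-sKD pool, against 2 in the no-KD pool. The best supported record without a no-KD partner had 5 reads, at 2R 6469732 in the piwi-sKD pool, outside annotated genes. Of the 28 transib1 records, 9 had an insertion of another family within 20 bp, and for 8 of these the commonest such family was the F-element. Such neighbours were counted for the member families only, so no share over all families stands beside this.

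hopper had 14 of its 69 fly loci (20.3%) in 6 flies or more and the Transib families 5 of 29 (17.2%), beside 29.9% for all other families. At X 4292318 to 4292635, outside annotated genes, it had 2 to 8 reads in 11 flies (median 3), 27 in the piwi-sKD pool, against 21 in the no-KD pool, and fly 8 had none. At 3L 7314527 to 7314833, also outside genes, it had 2 to 5 reads in the same 11 flies (median 3), 43 in the piwi-sKD pool, against 28 in the no-KD pool. Both sites were thus missing from the list of fly 8, which with 867 insertions was not among the shortest. At 2R 17160853 to 17161243 it had 2 to 6 reads in 9 flies, 44 in the piwi-sKD pool, against 43 in the no-KD pool. The strongest no-KD record without a piwi-sKD partner, with 32 reads, was at the first base of this last site, 146 bp from the nearest piwi-sKD hopper record, and the strongest piwi-sKD record without a no-KD partner, with 17 reads, lay inside the X site, 30 bp from a no-KD record. Neither is a site that 1 pool lacked. Between any 2 flies, 2 to 13 hopper insertions were shared (median 7 over 66 pairs).

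**Figure D4:**
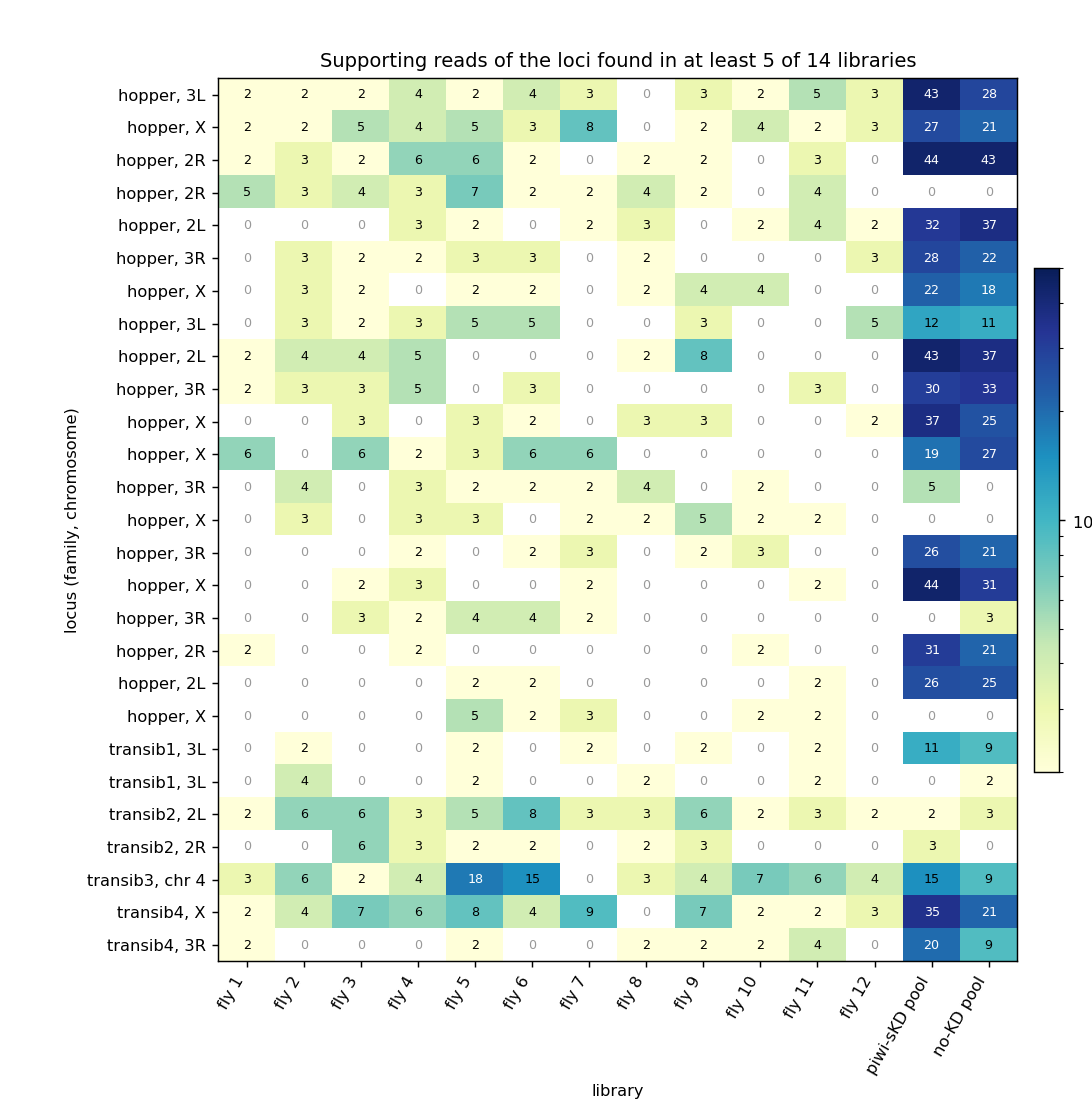
Reads at each of the hopper and Transib loci found in at least 5 of the 14 libraries (rows, with family and chromosome), in the 12 flies, the piwi-sKD pool and the no-KD pool (columns). The number in each cell is the summed support and 0 means not listed; most hopper rows are dark in both pools and pale in flies, 3 hopper rows are empty in both pools, and the transib2 row of 2L is filled in all libraries.

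Wide occurrence in flies and support in the pools did not go together for every site, and the following sites were chosen after their values were seen. Of the loci found in flies, 43 of 69 hopper loci and 13 of 29 Transib loci were in neither pool. For all other families it was 822 of 2342. How many of those were in at least 4 flies was not counted, and hopper gave 69 of the 99 member loci in flies. Absence from the pools is thus not shown to be particular to hopper. Among the member loci listed in at least 4 flies, 4 were absent from both pool lists, and each was a hopper locus. The clearest was 2R 2309836 to 2309851, outside genes, with 5, 3, 4, 3, 7, 2, 2, 4, 2 and 4 reads in flies 1 to 9 and 11 and the nearest hopper record of a pool, in the piwi-sKD list, 608572 bp away. Of any family, the nearest pool record was one of hoppel in the piwi-sKD list, 374 bp away. A further one, at X 13489614 to 13489619 within Neto, an auxiliary subunit of glutamate receptors at the neuromuscular junction, had 2 to 5 reads in 8 flies. The remaining ones were at X 22441332 to 22441339, with 2 to 5 reads in 5 flies, and at 2L 20213613 to 20213716, with 2 to 3 reads in 4 flies, the last lying 13 bp from a transib2 record of the piwi-sKD pool. These sites were recurrent in flies although the pools were the deeper lists. In the opposite sense, hopper at X 7845832 to 7845845 had 56 reads in the piwi-sKD pool, against 63 in the no-KD pool, the highest member support in either, but was listed only in fly 6 with 3 reads and in fly 8 with 2. The 16 loci with at least 40 pool reads were found in 2 to 11 flies (median 6). Which animals of a pool carry a site cannot be read from these lists, so carrier frequency and the difference between preparation sites cannot be told apart.

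hopper2 was close to hopper at several of its sites. Its record at 2R 17160969, with 5 reads in the piwi-sKD pool, lay inside the hopper site on 2R described above, and its records at 3L 7314578 to 7314674, with 2 reads in each pool, lay inside the hopper site on 3L. Reads may be split between these related names, so hopper2 counts are uncertain. Of its 12 records, 10 were on 3L, 10 had 2 reads, and 1 was in a gene span.

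Set against all other nuclear insertions of the same fly, hopper insertions were less often matched in the pools. A partner of any family within 20 bp was present in the piwi-sKD pool for 29.8% ± 8.79 of the hopper insertions and 49.6% ± 3.76 of all others, a difference of -19.8 percentage points, lower in 12 of 12 flies (exact sign-flip permutation test, adjusted p = 0.00317). This measure was added after the data had been seen. For the no-KD pool the shares were 31.2% ± 15.4 and 47.7% ± 2.70, a difference of -16.5 points, lower in 10 of 12 flies (exact sign-flip permutation test, adjusted p = 0.0147). The lower share thus applied to both pools and to far more than hopper, since of 104 families 51.9% were called for a piwi-sKD partner (22.1% higher and 29.8% lower) and 45.2% for a no-KD partner (19.2% higher and 26.0% lower). With exact positions (0 bp) the no-KD difference was -0.119 points (exact sign-flip permutation test, adjusted p = 0.967, range over 7 alternatives 0.00406 to 0.967), so it depends on the window.

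Of the Transib families, only transib3 was called for a pool partner at 20 bp, and this call does not hold up over windows. Its share in the piwi-sKD pool was 4.55% ± 15.1 against 49.2% ± 3.93 of all others, lower in 11 of 11 flies (exact sign-flip permutation test, adjusted p = 0.00376). At 100 bp the difference turned to 7.02 points and at 500 bp to 0.577 points (adjusted p = 0.389 and 0.943, range over 6 alternatives 0.00328 to 0.943). The chromosome 4 site, whose records span 396 bp, held 19 of the 25 records tested. Other settings gave calls for a piwi-sKD partner too. transib4 was at 17.4 points at 100 bp and 14.5 at 500 bp but at -13.1 at 0 bp (exact sign-flip permutation test, adjusted p = 0.0231, 0.00282 and 0.0365, range over 7 alternatives 0.00282 to 0.813), and transib2 was at -17.2 points at 0 bp and -55.5 with at least 3 reads (adjusted p = 0.00299 and 0.0153, range over 7 alternatives 0.00299 to 0.865). For the no-KD pool no Transib family was called at 20 bp: the shares were 47.9% for transib1, 33.2% for transib2, 46.5% for transib3 and 62.5% for transib4, against 47.2% to 47.4% of all others. Calls appeared at other windows without a common direction. transib4 was at 24.8 points at 100 bp and 12.4 at 500 bp but at -13.1 at 0 bp (exact sign-flip permutation test, adjusted p = 0.00391, 0.0469 and 0.0325, range over 7 alternatives 0.00391 to 0.748). transib2 was at -22.7 points at 100 bp and -17.3 at 0 bp (exact sign-flip permutation test, adjusted p = 0.0352 and 0.00462, range over 7 alternatives 0.00462 to 1.00), and at 20 bp without fly 1 it was called at -20.1 points (adjusted p = 0.0372). transib1 was at -17.1 points at 0 bp (exact sign-flip permutation test, adjusted p = 0.0185, range over 5 alternatives 0.0185 to 0.984). A partner in another fly was present for 77.9% ± 12.7 of hopper insertions and 81.8% ± 2.92 of all others, with adjusted p = 0.448 (exact sign-flip permutation test). No member was called there at 20 bp, where 22.1% of families were, 17.3% higher and 4.81% lower. At other windows transib1 was called in opposite directions, at -57.9 points at 0 bp and 7.77 at 500 bp (exact sign-flip permutation test, adjusted p = 0.0339 and 0.0369, range over 5 alternatives 0.0339 to 0.612), and transib2 was called at -26.5 points at 100 bp (adjusted p = 0.0444, range over 7 alternatives 0.0444 to 0.868).

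Weak support was common among the hopper insertions of flies, without passing the test. The share with only 2 reads was 58.1% ± 11.2 for hopper and 48.4% ± 4.91 for all others, higher in 9 of 12 flies (exact sign-flip permutation test, adjusted p = 0.128), and 5.77% of families were called (1.92% higher and 3.85% lower). With at most 3 reads the difference was 14.9 points and was called (exact sign-flip permutation test, adjusted p = 0.0156, range over 3 alternatives 0.0156 to 0.128). The Transib families were at 41.7% to 68.8% and none was called.

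The families occupied different parts of the chromosomes. hopper was spread along all arms, whereas Transib loci lay near the centromeres. Distance was measured from the end of the annotated genes on the centromere side of 2L, 2R, 3L, 3R and X, a measure added after the data had been seen. Of the 69 Transib loci on these arms, 63 (91.3%) were within 5 Mb of that end, beside 47 of the 147 hopper loci (32%) and 58.5% of the loci of all other families. By family the Transib counts were 9 of 11 for transib1, 30 of 32 for transib2, 14 of 15 for transib3 and 10 of 11 for transib4. Nearness to this end was not particular to Transib, since hoppel had 246 of 283 loci (86.9%) there, with a median distance of 2.60 Mb beside 2.62 Mb for Transib. For pogo the share was 14.3%. The outlying Transib loci included the recurrent transib4 site on X, 16.8 Mb from the end, and a transib2 locus on 2L, 16.7 Mb from it.

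**Figure D5:**
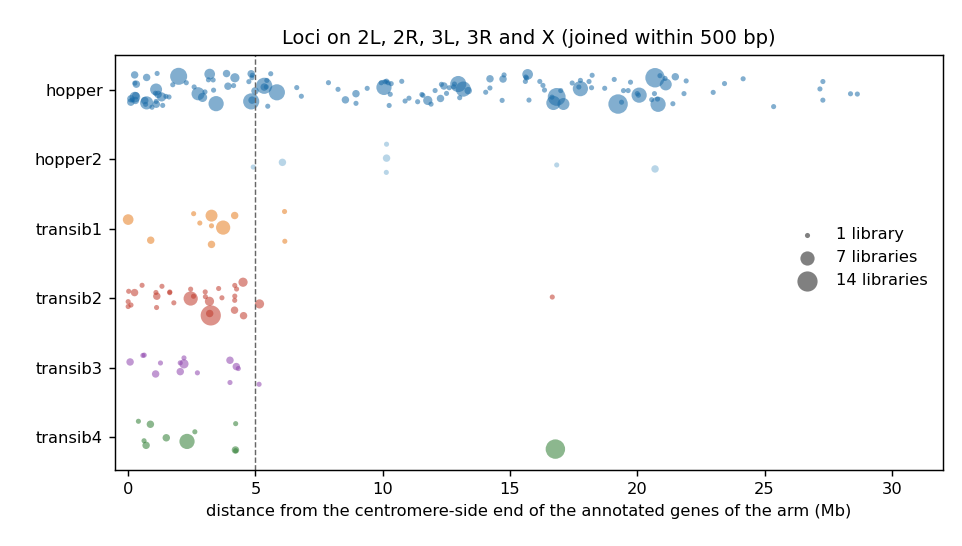
Distance of each locus from the centromere-side end of the annotated genes of its arm (horizontal axis, Mb), by family (rows, scattered vertically for visibility), with larger circles for loci in more libraries and a dashed line at 5 Mb. The Transib rows lie almost wholly left of the line, while hopper extends to the far ends of the arms.

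Within flies, the same measure was tested as a share of each fly's insertions. For transib2, 93.9% ± 11.5 lay within 5 Mb, against 37.1% ± 2.49 of all others, higher in 12 of 12 flies (exact sign-flip permutation test, adjusted p = 0.00113). The 2L site held 12 of the 29 transib2 records there, and without it 85.0% of 20 records were within 5 Mb. For transib1 the share was 100% of 14 records, against 37.0% ± 1.49 of all others, higher in 8 of 8 flies (exact sign-flip permutation test, adjusted p = 0.0109). At 2 Mb neither family was called, and the transib2 difference was -4.24 points (exact sign-flip permutation test, adjusted p = 0.432, range over 4 alternatives 7.32e-04 to 0.432). hopper was at 29.5% ± 11.4, against 37.4% ± 2.53, lower in 9 of 12 flies (exact sign-flip permutation test, adjusted p = 0.0468), but the call was lost when fly 1, 2, 3, 4, 6, 7, 8, 9 or 10 was left out (adjusted p up to 0.0933) and the difference was 0.279 points with at least 3 reads. transib4 was not called (30.6%, exact sign-flip permutation test, adjusted p = 0.486). The background is high, as 82.4% of 102 families were called, 51.0% higher and 31.4% lower.

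By chromosome, hopper was frequent on X and 3 of the Transib families were absent from X in flies. The X held 32.7% ± 8.15 of the hopper insertions of a fly and 19.1% ± 1.02 of all others, higher in 12 of 12 flies (exact sign-flip permutation test, adjusted p = 0.00145), and the 65 records came from 20 loci. Without the most frequent of these loci, 28.4% of the remaining 190 fly records were on X. In the pools, 30.1% of the nuclear hopper records were on X with piwi-sKD and 30.1% with no-KD. transib4 had 69.4% ± 31.6 on X, against 19.3% ± 1.01 of all others, higher in 11 of 12 flies (exact sign-flip permutation test, adjusted p = 0.00203), but all 16 records came from the 1 site described above. transib1, transib2 and transib3 had no fly record on X, beside 19.3% to 19.6% of all others (exact sign-flip permutation test, adjusted p = 0.0119, 0.00145 and 0.00203 in that order). Their fly records came from only 5, 15 and 6 loci in the same order. Of the fly loci of all other families, 18.1% were on X. The 2L site held 12 of the 32 transib2 records and the chromosome 4 site 19 of the 25 transib3 records. The same insertion is thus counted again in each fly, and few loci stand behind these calls. The absence from X in flies did not extend to the pools for 2 of these families. transib2 had 2 of 26 records on X with piwi-sKD (7.69%) and 3 of 16 with no-KD (18.8%), beside 17.3% and 18.4% of all other families. transib3 had 1 of 12 on X in the no-KD pool. The X share was also added after the data had been seen, and 75.0% of 104 families were called (16.3% higher and 58.7% lower). On chromosome 4 lay 25 of the 50 transib3 records and 4 of the 397 nuclear hopper records. The Y held 6 transib2 records, 1 of transib4 and 1 of hopper, all in pools. For all other families the Y held 1.72% of the nuclear records of flies, beside 7.13% (piwi-sKD) and 7.22% (no-KD) in the pools. A lower Y share in flies was thus not particular to the members. The sex of the flies is not given, and its bearing on the X and Y shares was not tested.

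In flies, transib3 was called higher and transib2 and transib4 lower than all others for the share of insertions in gene spans, and each of these rests largely on 1 site. Gene spans were taken from the RefSeq table of the same genome release; exon and intron positions were not analysed here. transib3 insertions of flies lay in gene spans in 97.0% ± 10.1 of cases, against 56.1% ± 1.22 of all others, higher in 11 of 11 flies (exact sign-flip permutation test, adjusted p = 0.00350), and 19 of those 24 records were the unc-13 site, without which 5 of 6 were in gene spans (83.3%). transib2 was at 35.8% ± 24.6, against 56.3% ± 1.21, lower in 10 of 12 flies (exact sign-flip permutation test, adjusted p = 0.0239), and 12 of its 19 records outside genes were the 2L site. Without that site 7 of 20 transib2 records (35.0%) were outside genes, a smaller share than among all others, so the direction turned; the remainders were not tested. transib4 was at 30.6% ± 31.6, against 56.3% ± 1.20, lower in 11 of 12 flies (exact sign-flip permutation test, adjusted p = 0.0426), and all 16 records outside genes were the X site. Without it 0 of 7 transib4 records were outside genes, so its direction turned too. That call was lost when fly 2, 3, 5, 6, 7, 9 or 12 was left out (adjusted p up to 0.0786). hopper was at 51.9% ± 14, against 56.3% ± 1.34 (exact sign-flip permutation test, adjusted p = 0.431), and transib1 was not called. Of all families 53.8% were called, 26.0% higher and 27.9% lower. Counted by locus rather than by record, 65.8% of hopper loci and 48.6% of Transib loci touched a gene span, beside 52.0% for all other families.

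The mitochondrial hopper records were found in the pools alone. There were 15 in the piwi-sKD pool, or 12.7% of its hopper records (Wilson 95% interval 7.86 to 19.9), and 11 in the no-KD pool, or 10.6% (6.01 to 18.0), so the shares differed by less than their counting error. The 12 flies had 0 of 201 hopper records there. As the nuclear fly records came from 69 loci of 1 line and from shallower lists, no upper limit of the share is given. Support was 2 to 6 reads per record in the piwi-sKD pool (47 in all) and 2 to 8 in the no-KD pool (43 in all). Positions ran from 1311 to 11757 in the piwi-sKD pool and from 1605 to 11551 in the no-KD pool. No hopper position there was within 20 bp of a hopper record of the other pool, the nearest pair being 4294 in the piwi-sKD pool, against 4272 in the no-KD pool. With partners of any family, some were shared. The shared hopper records numbered 47 with piwi-sKD and 41 with no-KD, against 43 and 38 on nuclear chromosomes alone. hopper was 1 of 9 families with mitochondrial records, behind BS (24 in the piwi-sKD pool, against 28 in the no-KD pool) and Rt1a (20 and 17 in the same pools), among 73 and 76 records over all families in these pools. The flies together had 8 such records, in 5 flies. Every other fly had a difference of 0, so the exact sign-flip permutation test could not pass 0.05 for any family. The percentage of families called for their mitochondrial share, 0.0 of 104, was thus fixed beforehand (p = 0.0625 for hopper by that test), and nothing is concluded from it. No hopper2 or Transib record was mitochondrial. On the nuclear chromosomes, 16 hopper records had BS within 20 bp, the commonest neighbour of another family among the 45 hopper records with one. BS was numerous in the lists, with 239 insertions specific to the piwi-sKD pool and 148 to the no-KD pool, beside 71 and 63 of hopper. Such neighbours were not counted for other families, so no particular link between hopper and BS is shown.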

How the data were processed

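Genomic DNA of 1 piwi-sKD pool, 1 no-KD pool and 12 single piwi-sKD flies had been sequenced as paired-end reads. The authors mapped them to dm6 with BWA (0.7.5a-r405 for the pools, 0.7.10-r789 for the flies) and searched for insertions missing from that genome with T-lex de novo, from partly mapped reads and read pairs with an unmapped end. In 13 lists the deposited values are counts, the whole number of reads behind each insertion. In the no-KD list they are a deposited scaled signal that takes only multiples of 1.23 (100% of values), so division by 1.23 gave reads. This factor was read from the values. No deposited column was left unused for lack of a sample (0 such columns).

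Insertions within 20 bp were taken as the same. Families with at least 5 pool-specific insertions were compared by Fisher's exact test (two-sided). For families present in at least 6 flies, the share in each fly was set against that of all its other insertions by an exact sign-flip permutation test (two-sided, 4096 flips for 12 flies, smallest p 4.88e-04), and counts were correlated with 100000 permutations. p-values were adjusted by Benjamini-Hochberg over all families, for 8 share measures separately called at 0.05. Fisher's exact test and the sign-flip test, but not the correlation, were checked on simulated data. Records were drawn there independently, so the recurrence of the same insertion between flies was not covered by the check. Loci were named per family as the 3 in the most libraries, the best supported in 1 pool alone, and the best supported in 1 fly alone. Members, lists and measures were chosen with earlier results of these data known. The alternatives were other windows, same-family partners, chromosome arms only, at least 3 reads, other family minimums and a binomial test, and each fly was left out in turn. Python 3.11.15, numpy 2.4.6, pandas 2.3.3, scipy 1.17.1 and matplotlib 3.10.9 were used.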

Additional observations from a re-analysis of the deposited data

How the results depend on the processing

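Across the alternatives, 154 values of member families kept their direction and side of the threshold, 11 gained and 4 lost a call, and 27 turned, mostly Transib shares over 14 to 32 fly records. The cause of a change was not tested unless stated. Shares below are differences, family minus all others, in percentage points.

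Counts of families called moved as follows. The binomial test between the pools called 1 family, against 0 by Fisher's exact test. Partners in another fly gave 1 call with at least 3 reads, against 23. The share at the read minimum gave 26 calls with at most 3 reads, against 6, and 3 to 8 when each fly was left out. Within 5 Mb, 53 of the families in all 12 flies were called, against 84 of the 102 families in at least 6 flies. The correlation gave 20 calls without 2 flies, against 50. Member loci numbered 233 when joined within 500 bp and 157 with at least 3 reads, against 364.

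Between the pools, the odds ratio of hopper was 1.13 at 500 bp, against 0.834 at 20 bp, and that of transib4 0.468 with at least 3 reads, against 1.68. At 500 bp transib4, and at 100 bp hopper2, had no no-KD-specific insertion, so no odds ratio was given. For the no-KD partner, at 0 bp transib1 was at -17.1, transib3 at 29.4 and transib4 at -13.1. At 500 bp transib3 was at 2.22, and with same-family partners transib1 was at -33.1 and transib3 at 1.13. Leaving out each fly gave -6.57 to 8.12 for transib1 and -6.26 to 4.34 for transib3. For the piwi-sKD partner, at 0 bp transib2 was at -17.2 and transib4 at -13.1. At 100 bp transib1 was at 9.20, transib2 at -7.25 and transib3 at 7.02, and at 500 bp they were at 2.05, -9.88 and 0.577. With at least 3 reads transib2 was at -55.5. Leaving out each fly gave -8.77 to 6.11 for transib1 and -2.25 to 5.02 for transib2. For the partner in another fly, transib3 was at 20.6 at 0 bp and transib1 at 7.77 at 500 bp. With at least 3 reads hopper was at 2.03, transib3 at 13.7 and transib4 at -2.70, and without each fly transib3 was at -4.25 to 1.16. For weak support, transib3 was at 0.581 with at most 3 reads, and without each fly transib2 was at -0.255 to 9.27 and transib3 at -10.0 to 0.973. Near the centromere-side end, transib2 was at -4.24 at 2 Mb and hopper at 0.279 with at least 3 reads. Without flies 5 and 12, r was -0.353 for transib3 and -0.140 for transib4. No paired analysis was possible because the flies have no numbered counterpart and either pool has a single library.

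The low number of Transib records in a fly, 0 to 5 per family, limits every share above, and the lists give no depth at positions without an insertion, so a site missing from a list is not shown to be empty.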
